A study of Mus musculus with 7 samples.

Results

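Mice lacking CD73 and kept for 4 weeks on a diet without methionine and choline were set against wild type C57BL/6 mice kept for 4 weeks on a normal control diet. The comparison takes 5 of the 7 libraries in the series, chosen by the genotype and diet in their labels. KO_MCD stands for the knockout on the methionine/choline-deficient diet (3 libraries), and WT_NCD for the wild type on the control diet (2 libraries). Wild type mice on the deficient diet (WT_MCD, 2 libraries) are the third group, and their values are given only beside those of the other two. The WT_MCD libraries were part of the fit, so they enter the gene filter, the scaling and the estimate of spread behind each p. The RNA came from liver cells sorted by flow cytometry as CD4+CD25+, which is how regulatory T cells (Treg) are commonly enriched. Genotype and diet differ together in this comparison, so their shares in a difference cannot be told apart. The part of the CD73 gene that was deleted, the genetic background of the knockout, the age of the mice and whether libraries came from separate or pooled animals were not stated in the labels used here. The p-values therefore reflect how much the libraries of a group differed, and that spread may be technical.

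CD73, encoded by Nt5e, is an enzyme on the cell surface that turns extracellular AMP into adenosine. CD39, encoded by Entpd1, supplies it with AMP from ATP, and adenosine dampens T cells through receptors of the Adora family. A diet without methionine and choline limits the making of phosphatidylcholine and is widely used to produce fatty liver with inflammation in mice. Treg are marked by the transcription factor Foxp3 and restrain other immune cells, partly through CD39 and CD73.

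Total counts ran from 19731501 to 24398738 per library. Levels are given as CPM, counts scaled to a common library size. Where no read was counted, the level may still reach 0.123 to 0.152 CPM, depending on the library (3 counts, counting error only). This floor was taken from unscaled library totals, so it differs slightly on the scale of the other CPM values. The defining Treg genes were counted in every library: Foxp3 at 108 to 287 CPM, Il2ra (CD25) at 193 to 791 CPM and Cd4 at 610 to 2137 CPM over the 7 libraries. RNA of other cells was present as well. The macrophage lysozyme Lyz2 had 7757 and 845 CPM in WT_NCD and 11324, 8374 and 6151 CPM in KO_MCD, so the WT_NCD libraries differed from each other more than the KO_MCD libraries did. Libraries of 1 group varied by 91.3% (coefficient of variation, from a common dispersion of 0.833).

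In KO_MCD against WT_NCD the genes of mitosis, lymph node homing and the interferon response stood lower, and genes of cytotoxic, B and dendritic cells stood higher. Of 14784 genes tested with edgeR over all genes, 0 were called higher and 0 lower at an adjusted p of 0.05 (0.0% and 0.0%), and the smallest adjusted p was 0.203. At an unadjusted p under 0.05 there were 698 higher genes (4.72%) and 628 lower genes (4.25%). With scaling by library totals alone these were 837 and 472, and the median log2 fold change of all genes was 0.165. DESeq2 called 387 genes higher (2.62%) and 182 lower (1.23%), while limma voom called 0 in each direction. The KO_MCD libraries all lay above both WT_NCD libraries for 1974 genes (13.4%) and all below them for 1886 genes (12.8%). By sign alone 7799 genes were higher (52.8%) and 6941 lower (46.9%), with a median log2 fold change of 0.06. These shares are the background for every count of list members below, where "apart" means that the libraries of both groups did not overlap. Most genes named below were picked among those apart, so for them being apart is not a result. Since no gene passed the edgeR test, values are given without a call.

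**Figure D1:**
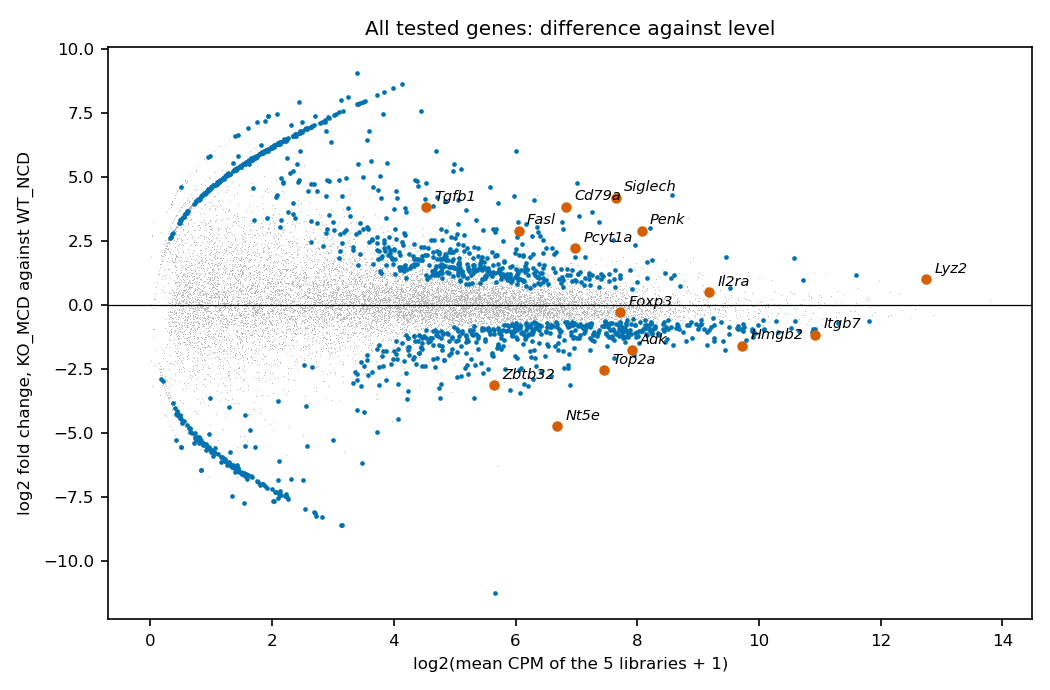
Log2 fold change of KO_MCD against WT_NCD for each of 14784 tested genes (y axis) against the log2 mean CPM of the 5 libraries plus 1 (x axis). Blue points are genes with an unadjusted edgeR p under 0.05, grey points are the others, and orange points are the 15 labelled genes. Genes not counted in 1 group are drawn at the bound given by a floor of 3 counts over that group. Nt5e lies lowest among the labelled genes, at -4.76.

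The knocked-out gene was read first. Nt5e (ENSMUSG00000032420, GRCm38 chromosome 9, 88327197 to 88372092) had 243 and 241 CPM in WT_NCD and 5.88, 14.5 and 6.43 CPM in KO_MCD. All KO_MCD libraries lay far below both WT_NCD libraries, and reads were still counted in each of them. This was a log2 fold change of -4.76 (SE 0.52), with an adjusted p of 0.203 by edgeR and 1.11e-14 by DESeq2. The WT_MCD libraries had 177 and 87.6 CPM, between the groups.

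Other genes of the adenosine pathway stood on both sides. Of 31 tested members of the adenosine and nucleotide list, 5 were higher and apart and 8 lower and apart, 4 and 6 had an unadjusted p under 0.05, and the median was 0.01. With 1 library left out these were 2 to 4 higher and 3 to 6 lower members, fewest without KO_MCD replicate 1. Adk, the kinase that turns adenosine back into AMP inside cells, had 345 and 485 CPM in WT_NCD and 118, 141 and 110 CPM in KO_MCD, a log2 fold change of -1.76 (SE 0.27, edgeR adjusted p = 0.203). The groups did not overlap, by the choice of this gene, and both WT_MCD libraries (118 and 138 CPM) lay within the KO_MCD range. Ahcy, which splits S-adenosylhomocysteine into adenosine and homocysteine, had 35.1 and 40.2 CPM in WT_NCD and 11.9, 21.4 and 16.4 CPM in KO_MCD. Adora2b, a low-affinity adenosine receptor, was not counted in WT_NCD and had 3.89, 5.35 and 16.9 CPM in KO_MCD, at least 125-fold higher when WT_NCD is set to a floor of 3 counts in all, or 66.6-fold without KO_MCD replicate 3. Entpd1 overlapped between the groups, with 236 and 157 CPM against 135, 160 and 173 CPM (log2 fold change -0.33, SE 0.35).

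The genes with the smallest p in each direction were 12 higher and 12 lower, with edgeR adjusted p from 0.203 to 0.209. They were chosen among genes that were apart and had a mean of at least 5 CPM. Predicted genes, pseudogenes and receptor or immunoglobulin segments were left out. All 24 passed 0.05 with DESeq2. On the higher side stood Ly6d, a surface protein of lymphoid precursors, B cells and plasmacytoid dendritic cells, with 5.06 and 3.52 CPM in WT_NCD and 55.1, 50.1 and 62.2 CPM in KO_MCD, a log2 fold change of 3.70 (SE 0.46). Fasl, the death ligand of cytotoxic lymphocytes, had 15.7 and 11.0 CPM against 69.0, 110 and 120 CPM (2.90, SE 0.40). Tex2, a lipid transfer protein of the endoplasmic reticulum, had 31.0 and 25.6 CPM against 136, 108 and 147 CPM (2.20, SE 0.34). In each of these the lowest KO_MCD library stood well above the highest WT_NCD library. Rubcnl, a regulator of autophagy, had 1.42 and 2.53 CPM against 44.1, 43.8 and 17.8 CPM (4.15, SE 0.66). Mctp2 and Smpdl3b were near 0 in WT_NCD, at 0 and 0.344 CPM and at 0.202 and 0.0429 CPM, and had 34.0 to 35.6 CPM and 16.4 to 27.2 CPM in KO_MCD. Ccdc184, Klre1 and Nicn1 were not counted in WT_NCD and were at least 291-fold, 174-fold and 131-fold higher against the floor.

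On the lower side, after Nt5e, stood Zbtb32, a transcriptional repressor of activated lymphocytes, with 93.5 and 115 CPM in WT_NCD and 15.7, 10.7 and 9.34 CPM in KO_MCD, a log2 fold change of -3.13 (SE 0.37). Its WT_MCD libraries, at 25.7 and 29.2 CPM, lay between the groups. Carhsp1, an RNA-binding protein, had 352 and 255 CPM against 95.4, 112 and 91.2 CPM (-1.61, SE 0.26). Trib2, a pseudokinase, had 525 and 362 CPM against 88.1, 108 and 142 CPM (-1.98, SE 0.33). Eme1, a subunit of an endonuclease that resolves joined DNA strands, was not counted in KO_MCD and had 7.99 and 19.8 CPM in WT_NCD, at least 306-fold lower against the floor, or 170-fold without WT_NCD replicate 2. The other 7 lower genes, among them Ncapd2, Top2a, Spc24 and Hmgb2, are described with their groups.

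**Figure D2:**
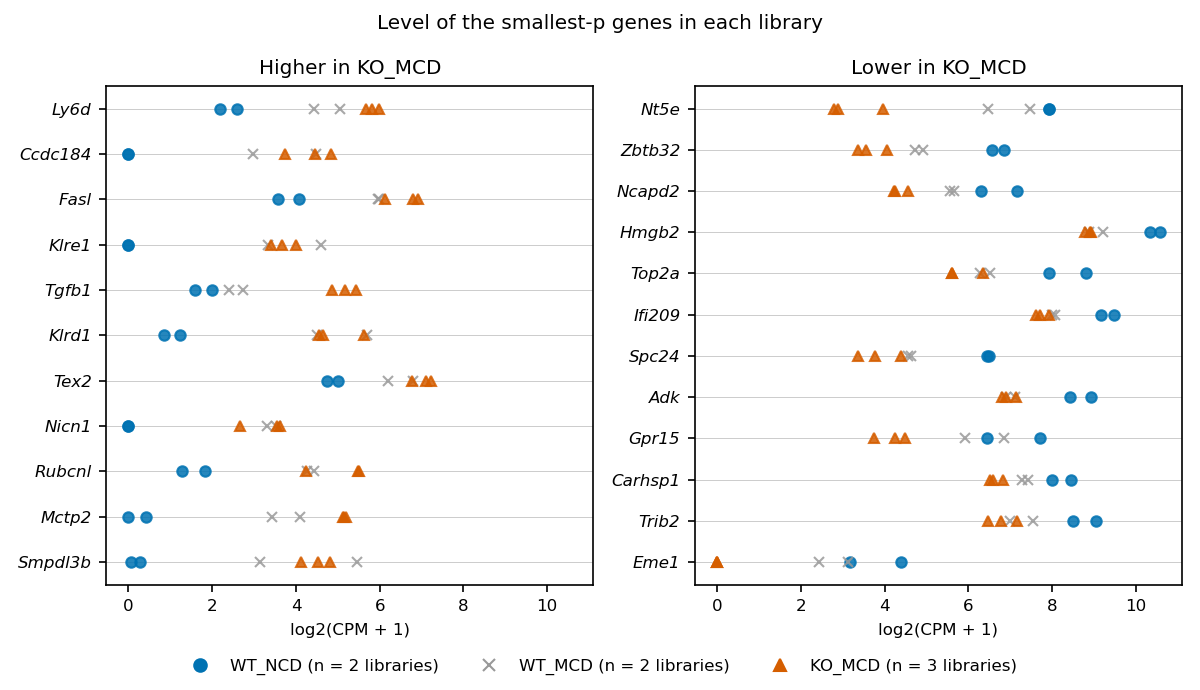
Level of genes of smallest p, 11 higher and 12 lower, in all 7 libraries, as log2 of CPM plus 1 on the x axis. Circles are WT_NCD, crosses WT_MCD and triangles KO_MCD, 1 mark per library. By the choice of these genes the circles and triangles do not overlap; for Adk and Ifi209 the crosses lie with or next to the triangles, and for Nt5e and Gpr15 nearer to the circles.

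Genes of cell division stood lower in KO_MCD. All 62 tested genes of mitosis and chromosome condensation had a negative fold change, with a median of -2.34, beside 0.06 over all genes. Of these 52 were lower and apart (83.9%), 38 had an unadjusted p under 0.05, and 27 were called lower by DESeq2. With 1 library left out, the number with such a p ran from 28 (without WT_NCD replicate 2) to 45 (without KO_MCD replicate 3), and the median from -2.84 to -1.99. The summed level of the list was 5240 and 6052 CPM in WT_NCD and 1534, 1473 and 1995 CPM in KO_MCD. The WT_MCD sums, 1948 and 2186 CPM, stood near the highest KO_MCD library. In bulk samples fewer dividing cells and less of these RNAs per cell cannot be told apart.

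The members act at successive steps of division. Ncapd2, a subunit of condensin, which compacts chromosomes, had 77.9 and 141 CPM in WT_NCD and 17.9, 22.5 and 17.8 CPM in KO_MCD, a log2 fold change of -2.5 (SE 0.36). Top2a, the topoisomerase that untangles sister DNA, had 241 and 451 CPM against 48.0, 47.5 and 80.2 CPM (-2.56, SE 0.38). By the choice of these genes, both were lower than WT_NCD in every KO_MCD library. Spc24, part of the kinetochore complex that grips microtubules, had 89.1 and 86.0 CPM against 9.37, 12.5 and 19.9 CPM (-2.65, SE 0.41). Aurka, a kinase of the spindle poles, had 110 and 156 CPM against 29.2, 22.8 and 19.1 CPM (-2.49, SE 0.42). For Aurka the WT_MCD libraries, at 24.3 and 53.4 CPM, overlapped KO_MCD.

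Genes of DNA synthesis stood lower by smaller amounts. Of 47 replication genes 41 had a negative fold change and 17 were lower and apart (36.2%), with a median of -0.78. Of the 47, 12 reached an unadjusted p under 0.05, all lower. Without WT_NCD replicate 2 there were 2 and without KO_MCD replicate 2 there were 4, and the median was -0.41 and -0.76. Cdc6, which loads the replicative helicase, had 17.8 and 78.3 CPM in WT_NCD and 13.5, 9.29 and 4.19 CPM in KO_MCD (-2.42, SE 0.74, and -0.98 without WT_NCD replicate 2). Mcm4, a subunit of that helicase, had 113 and 143 CPM against 67.1, 72.7 and 73.4 CPM (-0.85, SE 0.26), and Tyms, which makes thymidylate, had 43.9 and 70.0 CPM against 12.4, 25.1 and 24.8 CPM (-1.45, SE 0.46). Uhrf1, which carries DNA methylation through replication, had a log2 fold change of -1.41 (SE 0.46).

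Chromatin proteins and tubulins of dividing cells were lower and apart in 13 of 22 members, and DNA repair genes in 12 of 32, with medians of -0.55 and -0.70. An unadjusted p under 0.05 was reached by 8 of the chromatin genes, all lower, by 3 without KO_MCD replicate 1 or 2 or WT_NCD replicate 2, and by 4 without KO_MCD replicate 3. Hmgb2, a DNA-bending protein abundant in dividing cells, had 1302 and 1521 CPM in WT_NCD and 479, 436 and 484 CPM in KO_MCD (-1.60, SE 0.24). Stmn1, which destabilizes microtubules, had 184 and 264 CPM against 35.7, 16.7 and 79.0 CPM (-2.35, SE 0.62). Rad54l, a DNA translocase of homologous repair, had 47.6 and 37.9 CPM against 12.7, 8.47 and 22.4 CPM (-1.56, SE 0.51). Of the 18 tested p53 targets 9 were higher and 9 lower, with a median of 0.10 (0.62 without WT_NCD replicate 1 and -0.39 without WT_NCD replicate 2), and 1 was higher and apart and 4 lower and apart. Trp53inp1, the member of smallest p among those apart, had 245 and 215 CPM against 82.1, 121 and 107 CPM.

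**Figure D3:**
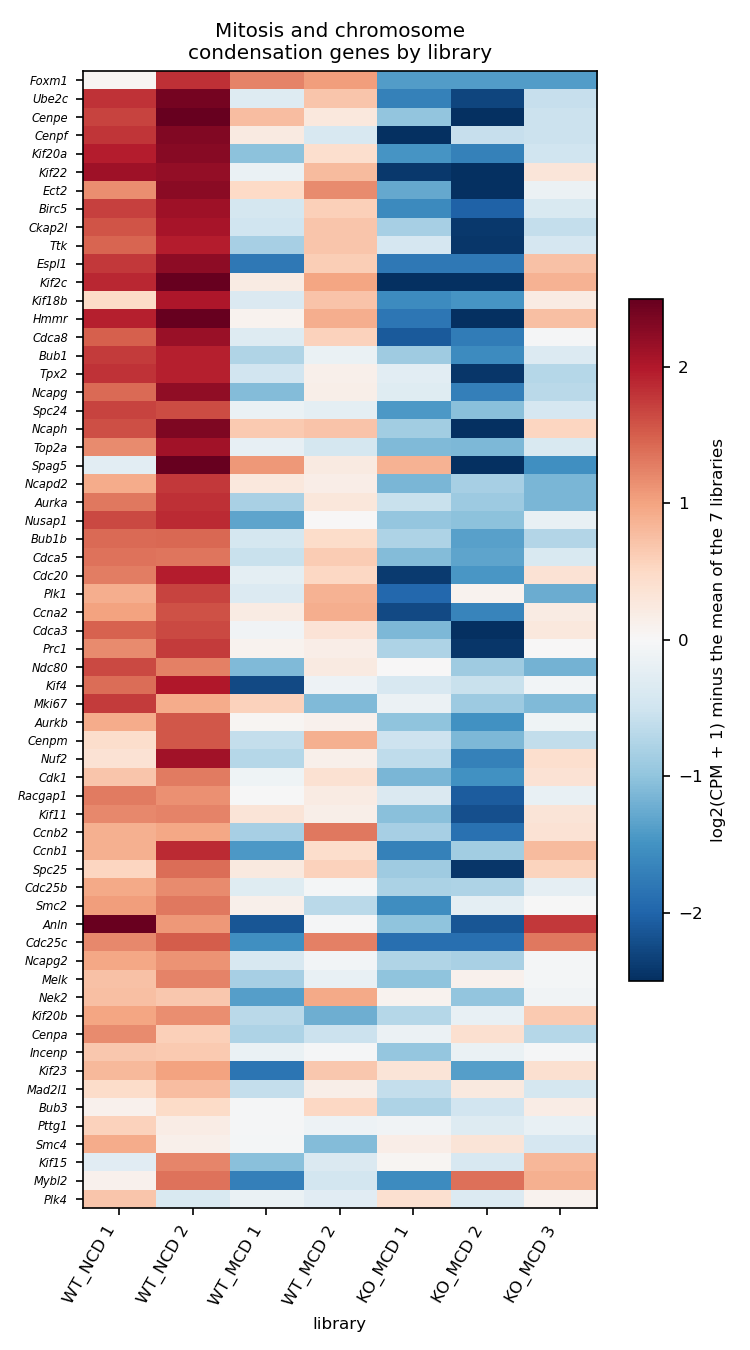
Level of the 62 tested mitosis and chromosome condensation genes (rows, ordered by fold change) in each of the 7 libraries (columns), as log2 of CPM plus 1 minus the mean of the 7 libraries. Red is above and blue below that mean, with colours capped at 2.5. WT_NCD columns are red in most rows, and KO_MCD replicates 1 and 2 are blue in most rows, more so than KO_MCD replicate 3.

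Promoter windows of the mitosis, replication and dividing-cell chromatin lists were read for elements of cell cycle promoters. The share of a motif in these lists is a trait of the lists, not of the fold changes, whose cause was not tested. Elements known from cell cycle promoters are the CCAAT box, bound by NF-Y, and TTTGAA, the core of the cell cycle homology region through which the DREAM complex and its relatives act. Another, TTTGGCG or TTTCGCG, is a core of E2F sites. Windows of 300 bases (250 before to 50 after the start) were taken from RefSeq on GRCm38.p6 for 10220 of the tested genes, and both strands were searched. None of these motifs contains another. Some windows are shown so that the spacing of any motifs can be seen. They are those of the 3 mitosis or chromatin genes and the 1 replication gene of smallest p among the named genes with a window. They are printed 5′ to 3′ on the gene's strand, with motif matches of either strand in capitals. Ncapd2 lies at chr6:125191537-125191836 (minus strand), Hmgb2 at chr8:57511593-57511892 (plus), Top2a at chr11:99024140-99024439 (minus) and Cdc6 at chr11:98907901-98908200 (plus).
Ncapd2: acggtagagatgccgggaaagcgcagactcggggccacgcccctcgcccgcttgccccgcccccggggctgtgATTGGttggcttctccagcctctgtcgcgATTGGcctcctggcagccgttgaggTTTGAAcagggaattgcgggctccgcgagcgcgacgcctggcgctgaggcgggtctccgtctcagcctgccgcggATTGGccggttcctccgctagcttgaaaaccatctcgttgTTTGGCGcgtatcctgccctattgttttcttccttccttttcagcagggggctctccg
Hmgb2: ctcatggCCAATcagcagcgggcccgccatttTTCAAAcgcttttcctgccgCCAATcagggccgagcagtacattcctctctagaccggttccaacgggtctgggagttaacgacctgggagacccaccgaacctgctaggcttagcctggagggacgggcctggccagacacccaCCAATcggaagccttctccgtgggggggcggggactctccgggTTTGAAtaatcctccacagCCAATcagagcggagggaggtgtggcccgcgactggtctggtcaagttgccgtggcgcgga
Top2a: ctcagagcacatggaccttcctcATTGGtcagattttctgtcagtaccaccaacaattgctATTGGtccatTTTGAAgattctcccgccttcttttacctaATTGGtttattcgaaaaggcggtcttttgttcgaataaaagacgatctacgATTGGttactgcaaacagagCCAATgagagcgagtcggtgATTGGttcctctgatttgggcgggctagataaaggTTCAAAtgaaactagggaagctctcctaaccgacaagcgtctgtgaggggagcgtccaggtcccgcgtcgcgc
Cdc6: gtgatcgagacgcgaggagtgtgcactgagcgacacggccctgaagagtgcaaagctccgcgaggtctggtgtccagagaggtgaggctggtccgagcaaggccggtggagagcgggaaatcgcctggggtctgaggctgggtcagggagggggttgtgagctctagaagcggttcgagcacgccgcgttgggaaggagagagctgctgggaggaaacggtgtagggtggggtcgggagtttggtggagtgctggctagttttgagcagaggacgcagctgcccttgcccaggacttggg

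The Hmgb2 window held TTTGAA on the gene's strand at -30 from the RefSeq start and on the other strand at -218, with CCAAT at -11, -73 and farther upstream. That start lies 64 bases from the GENCODE start for Hmgb2 and 115 bases for Ncapd2. In the Ncapd2 window TTTGAA began at -123, CCAAT on the other strand at -48, -148 and -177, and TTTGGCG at -8. Top2a held 6 CCAAT matches, and TTTGAA on the other strand at -23 and on the gene's strand at -179. The Cdc6 window held none of the letters searched. It begins from a RefSeq start that lies 350 bases from the GENCODE start of the gene, and the absence says only that the letters are not in this window.

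TTTGAA was held by 71.7% of the 53 mitosis windows, beside 12.7% of all 10220, and CCAAT by 69.8% beside 38.9%. Both together were in 58.5% of mitosis windows and 5.17% of all. For the 38 replication windows TTTGAA was in 13.2%, CCAAT in 57.9% and an E2F core in 36.8%, beside 4.13% of all windows. The 18 windows of dividing-cell chromatin genes held CCAAT in 77.8%, TTTGAA in 33.3% and an E2F core in 22.2%. Median GC content was 59.0% in the mitosis windows and 60.3% in all. Among all genes that were lower at an unadjusted edgeR p under 0.05, 461 had a window and 20.6% of these held TTTGAA. Outside the mitosis, replication, chromatin and repair lists TTTGAA was in 16.5% of 412 windows. The other motifs stood near or below the share of all windows there, with CCAAT in 39.1% and an E2F core in 3.40%. Among higher genes TTTGAA was in 12.3% of 513 windows. A match is a description of the letters, not of binding.

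Genes of naive and recirculating T cells stood lower. Of 21 tested members 18 had a negative fold change, 11 were lower and apart (52.4%) and 1 was higher and apart, with a median of -1.01. An unadjusted p under 0.05 was reached by 8, all lower; without WT_NCD replicate 2 there were 3 and the median was -0.49, without KO_MCD replicate 1 there were 4, and without WT_NCD replicate 1 there were 12. S1pr1, the receptor that lets T cells leave lymphoid tissue, had 900 and 1052 CPM in WT_NCD and 435, 315 and 358 CPM in KO_MCD (-1.40, SE 0.27). Cd27, a costimulatory receptor, had 501 and 917 CPM against 282, 260 and 255 CPM (-1.41, SE 0.35), and Tcf7, the factor TCF1 of naive and memory T cells, had 173 and 420 CPM against 125, 114 and 163 CPM (-1.14, SE 0.41, and -0.36 without WT_NCD replicate 2). All 3 were apart, as the rule for naming them required, though for Tcf7 the lower WT_NCD library stood just above the highest KO_MCD library.

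Homing receptors split in both directions, with 10 of 25 lower and apart (40.0%) and 4 higher and apart (16%). The lower members with an unadjusted p under 0.05 were 8, and 4 without KO_MCD replicate 2 and 5 without KO_MCD replicate 1 or WT_NCD replicate 2. Gpr15, which guides T cells to the large intestine, had 86.3 and 210 CPM in WT_NCD and 12.3, 17.9 and 21.2 CPM in KO_MCD (-3.11, SE 0.50). Its WT_MCD libraries, at 114 and 59.6 CPM, stood well above KO_MCD. Ccr4, a skin and tissue homing receptor, had 125 and 206 CPM against 52.9, 40.5 and 70.1 CPM (-1.60, SE 0.38), with WT_MCD at 179 and 111 CPM. Itgb7, the integrin chain of gut homing, had 2213 and 3593 CPM against 1326, 1303 and 1252 CPM (-1.17, SE 0.27). The KO_MCD libraries of these 3 genes lay below every wild type library. Cxcr6, which holds lymphocytes in liver sinusoids, stood the other way, with 37.3 and 23.9 CPM against 137, 81.8 and 154 CPM (2.02, SE 0.58), and so did Ccr8, a receptor of tissue Treg, with 688 and 398 CPM against 994, 1368 and 1132 CPM (1.10, SE 0.62).

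T cell receptor signaling genes were lower and apart in 14 of 34 members (41.2%) and higher and apart in 4, with a median of -0.37 (-0.15 without WT_NCD replicate 2 and -0.63 without WT_NCD replicate 1). Prkcq, the kinase PKC-theta of the immune synapse, had 264 and 340 CPM in WT_NCD and 135, 149 and 196 CPM in KO_MCD (-0.91, SE 0.28). Cd247, the zeta chain of the receptor, had 343 and 601 CPM against 185, 201 and 280 CPM (-1.09, SE 0.37). Both were apart. An unadjusted p under 0.05 was reached by 5 lower members, by 0 without KO_MCD replicate 1 or WT_NCD replicate 2, by 1 without KO_MCD replicate 2, and by 9 without WT_MCD replicate 2 or WT_NCD replicate 1.

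Treg genes stood on both sides, by small amounts for some and larger or poorly determined amounts for others. Foxp3 had 181 and 287 CPM in WT_NCD and 192, 167 and 218 CPM in KO_MCD (-0.28, SE 0.30, edgeR adjusted p = 0.871), Il2ra had 320 and 608 CPM against 590, 769 and 604 CPM (0.50, SE 0.57), and Il10, a suppressive cytokine, 237 and 86.8 CPM against 198, 153 and 160 CPM (0.07, SE 0.64). These 3 overlapped between the groups, as did Ikzf2 (Helios), with 359 and 495 CPM against 318, 415 and 309 CPM (-0.30, SE 0.53). Without WT_NCD replicate 2 the log2 fold changes of Foxp3 and Il10 turned sign. With 1 library left out that of Il2ra ran from 0.11 to 1.04. Ctla4, an inhibitory receptor, was lower and apart, with 160 and 85.7 CPM against 68.2, 66.3 and 68.1 CPM (-0.86, SE 0.41, edgeR adjusted p = 0.582). Of 23 tested Treg identity genes 3 were higher and apart and 5 lower and apart, and the median was -0.26 (0.11 without WT_NCD replicate 2). Nrp1, a surface marker of thymic Treg, had 385 and 503 CPM against 253, 185 and 174 CPM (-1.12, SE 0.28), while Tnfrsf9, a costimulatory receptor of activated Treg, had 142 and 242 CPM against 466, 422 and 485 CPM (1.25, SE 0.38).

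Tgfb1, the cytokine TGF-beta 1 (ENSMUSG00000002603, chromosome 7, 25687002 to 25705077), had 2.02 and 2.96 CPM in WT_NCD and 35.3, 27.9 and 42.0 CPM in KO_MCD (3.81, SE 0.56, edgeR adjusted p = 0.203). The WT_MCD libraries had 5.67 and 4.25 CPM, so that KO_MCD lay above all wild type libraries. In the list of the pathway 7 of 20 members were higher and apart (35%) and 1 lower and apart. The receptor chain Tgfbr2 had 97.7 and 112 CPM against 201, 157 and 177 CPM (0.77, SE 0.27), Itgav, an integrin chain that helps to free the cytokine, 68.1 and 46.6 CPM against 128, 110 and 96.7 CPM, and Furin, the protease that cuts its precursor, 14.8 and 17.0 CPM against 32.4, 57.6 and 22.8 CPM. These 3 had an unadjusted p under 0.05 together with Tgfb1; without KO_MCD replicate 1 there was 1 such higher member, and without KO_MCD replicate 2 or WT_NCD replicate 2 there were 2. Penk, the opioid precursor expressed by tissue Treg, had 67.1 and 43.0 CPM against 359, 506 and 366 CPM (2.90, SE 0.81), and Bhlhe40, a transcription factor of activated T cells, 456 and 76.8 CPM against 983, 1095 and 883 CPM. For Penk the WT_MCD libraries were spread widely, at 722 and 94.2 CPM.

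Cytotoxic and T helper 1 effectors stood higher in 16 of 24 members, with 12 higher and apart (50%), 1 lower and apart and a median of 1.02. Fasl, described above, had the smallest p of the list, and Ctsw, a protease of cytotoxic lymphocytes, had 14.8 and 45.1 CPM in WT_NCD against 147, 123 and 150 CPM (2.23, SE 0.50). An unadjusted p under 0.05 was reached by 8 higher members, by 4 without KO_MCD replicate 1 and by 5 without KO_MCD replicate 3. Markers of natural killer (NK), CD8 and gamma delta T cells stood beside them: 25 of 26 were higher, 18 were higher and apart (69.2%) and 10 had an unadjusted p under 0.05, with a median of 3.0 (2.81 with the 9 genes not counted in WT_NCD at their bound, and 6.84 without WT_NCD replicate 1). The summed level of that list was 610 and 80.4 CPM in WT_NCD and 586, 596 and 647 CPM in KO_MCD, so WT_NCD replicate 1 lay within the KO_MCD range. Klrd1, the killer cell receptor CD94, had 0.809 and 1.33 CPM against 22.2, 23.9 and 48.3 CPM (4.87, SE 0.73). Ncr1, a defining NK receptor, was at 0 in both WT_NCD libraries and at 4.42, 5.75 and 6.72 CPM in KO_MCD. The part of other cells in the cytotoxic genes was not tested.

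B cell markers stood higher as well: 20 of 23 were higher, 16 higher and apart (69.6%), and 15 had an unadjusted p under 0.05, with a median of 2.96. Cd79a, a chain of the B cell receptor complex, had 14.5 and 10.6 CPM in WT_NCD and 251, 210 and 79.7 CPM in KO_MCD (3.84, SE 0.63). The WT_MCD libraries had 37.2 and 72.6 CPM, and KO_MCD replicate 3 was the lowest of its group. The summed list was 3651 and 3492 CPM in WT_NCD and 4822, 4785 and 2546 CPM in KO_MCD and overlapped. The abundant heavy chain gene Ighm stood lower and apart, with 1943 and 2663 CPM against 1305, 1231 and 903 CPM (-1.01, SE 0.32).

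Dendritic cell markers were higher and apart in 14 of 20 members (70.0%), and their median was 2.41. Of the 20, 13 reached an unadjusted p under 0.05, and by 8 without KO_MCD replicate 3. Siglech, a receptor of plasmacytoid dendritic cells, had 20.4 and 14.7 CPM in WT_NCD and 261, 113 and 589 CPM in KO_MCD (4.19, SE 0.74), and Tcf4, the factor that specifies those cells, 18.1 and 7.0 CPM against 120, 69.1 and 143 CPM (3.14, SE 0.55). Xcr1 and Clec9a, which define conventional type 1 dendritic cells, stood at 7.33, 2.72 and 3.24 CPM and at 6.17, 0 and 4.95 CPM in KO_MCD, beside 7.13 and 2.88 CPM and 0 and 0 CPM in WT_NCD. The summed list was 444 and 294 CPM against 1343, 848 and 2021 CPM. Of 15 genes of MHC class II presentation, 9 were higher and 6 lower, 3 were higher and apart (20%), and the median was 0.25, or 1.25 without WT_NCD replicate 1 and -0.45 without WT_NCD replicate 2. Their summed level overlapped, with 13534 and 1895 CPM in WT_NCD against 9525, 9421 and 7044 CPM. H2-DMb2, a chain of the peptide loader for MHC class II, had 38.6 and 15.3 CPM against 375, 306 and 88.3 CPM (3.25, SE 0.77), and Ciita, the master regulator of MHC class II genes, 22.0 and 1.80 CPM against 52.1, 57.6 and 29.7 CPM (1.96, and 1.08 without WT_NCD replicate 2). The part of B and dendritic cells in the MHC class II genes was not tested.

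**Figure D4:**
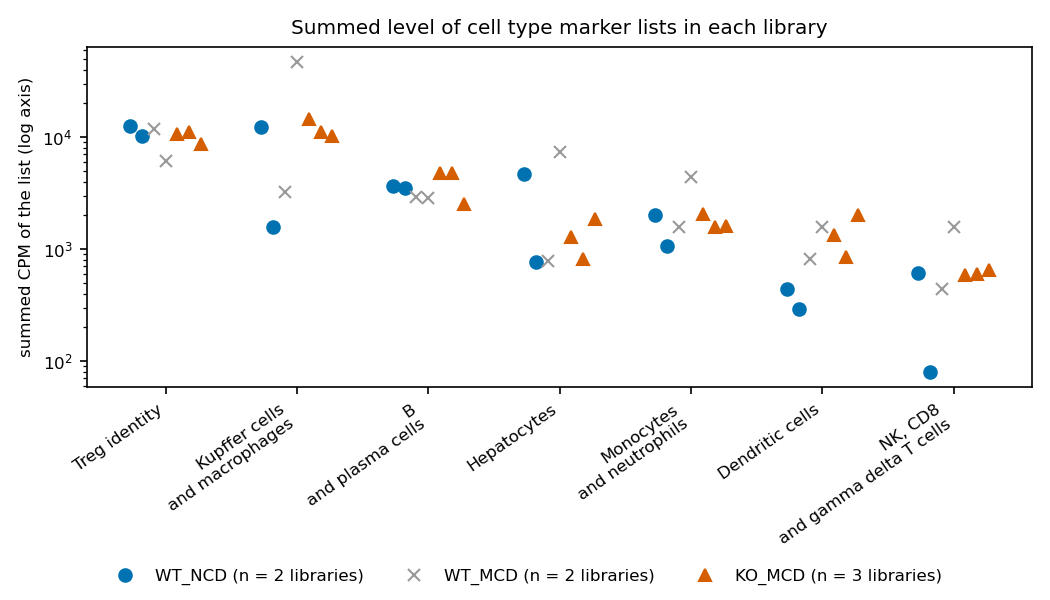
Summed CPM of cell type marker lists (log y axis) in each of the 7 libraries, 1 mark per library, for lists along the x axis. Circles are WT_NCD, crosses WT_MCD and triangles KO_MCD. Of the 7 lists drawn, the dendritic list alone has sums that do not overlap between KO_MCD and WT_NCD, and the macrophage, hepatocyte and NK sums of the WT_NCD libraries lie far from each other. The hepatocyte sums came mostly from members other than Alb.

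Kupffer cell and macrophage markers had no common direction, with 12 of 24 higher and 12 lower and a median of 0.03. The sum of the list was 12199 and 1589 CPM in WT_NCD and 14611, 11074 and 10154 CPM in KO_MCD. The median was 2.43 without WT_NCD replicate 1, and -0.32 without WT_NCD replicate 2. Clec4f, a lectin of resident Kupffer cells, stood lower and apart, with 249 and 71.9 CPM against 43.2, 28.5 and 48.3 CPM (-2.00, SE 0.58, and -0.85 without WT_NCD replicate 1). Gpnmb, a glycoprotein of lipid-laden macrophages, stood higher and apart, with 122 and 17.3 CPM against 567, 316 and 1241 CPM (3.34, SE 1.52, and 2.54 without WT_NCD replicate 2), and Lpl, from the list of fatty acid uptake, the lipase that frees fatty acids from lipoproteins, had 32.3 and 4.72 CPM against 275, 155 and 188 CPM (3.48, SE 1.18, and 2.68 without WT_NCD replicate 2). Hepatocyte genes were lower in 19 of 20 tested members and apart in 11, with a median of -4.31 when the 9 genes not counted in KO_MCD are set at their bound. Without WT_NCD replicate 1, 14 of the 20 were lower, and those with an unadjusted p under 0.05 were 4 in place of 10. Only 4 members had a mean of at least 5 CPM, and their median was -0.72. The sum of the list was 4712 and 775 CPM in WT_NCD and 1282, 820 and 1845 CPM in KO_MCD, which overlapped. Alb, the defining secreted protein, had 3.79 and 1.85 CPM in WT_NCD and 0, 3.53 and 3.05 CPM in KO_MCD. The sum therefore came mostly from members other than Alb, and which cells their RNA came from was not tested.

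Genes of choline and methionine metabolism were higher and apart in 10 of 39 members (25.6%) and lower and apart in 9 (23.1%), with a median of -0.08 (0.39 without WT_NCD replicate 2). Chka, the kinase that phosphorylates choline in the first step of phosphatidylcholine synthesis, had 3.24 and 1.12 CPM in WT_NCD and 68.9, 42.2 and 10.8 CPM in KO_MCD (4.22, SE 0.96). Pcyt1a, the rate-limiting enzyme of the next step, had 50.9 and 27.5 CPM against 168, 180 and 199 CPM (2.22, SE 0.36, edgeR adjusted p = 0.203), with WT_MCD at 92.2 and 117 CPM. Both were apart, as the rule for naming them required, and also stood above every wild type library. A pair of further members was picked after their values were seen, so they say nothing of the list: Chpt1, which completes phosphatidylcholine, had 1.11 and 2.28 CPM against 13.9, 12.2 and 10.6 CPM, and Pcyt2, the counterpart for phosphatidylethanolamine, 12.5 and 22.2 CPM against 39.3, 60.5 and 47.3 CPM. On the lower side Bhmt, a hepatocyte enzyme that remakes methionine from betaine, was not counted in KO_MCD and had 33.4 and 5.33 CPM in WT_NCD, at least 387-fold lower against the floor, or 113-fold without WT_NCD replicate 1. Azin1, which raises polyamine synthesis, had 294 and 344 CPM against 171, 113 and 147 CPM (-1.15, SE 0.29).

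Lipid synthesis genes stood higher by sign in 21 of 27 members, with 5 higher and apart (18.5%) and 2 lower and apart. An unadjusted edgeR p under 0.05 was reached by 2 higher members and 1 lower member. Their median was 0.28, which ran from 0.14 without KO_MCD replicate 3 to 0.68 without WT_NCD replicate 2. Without WT_NCD replicate 1 it was 0.16, close to the 0.15 of all genes in that setting, with 17 higher and 10 lower. Scd1, the desaturase that makes monounsaturated fatty acids, had 7.28 and 3.01 CPM in WT_NCD and 85.3, 126 and 34.2 CPM in KO_MCD (3.99, SE 0.77). Sqle, an enzyme of cholesterol synthesis, had 20.1 and 17.7 CPM against 76.2, 60.3 and 80.5 CPM (1.94, SE 0.58), and Elovl6, which lengthens fatty acids, stood the other way, with 54.7 and 17.7 CPM against 6.31, 7.34 and 15.8 CPM (-1.88, SE 0.76, and -0.86 without WT_NCD replicate 1). Of 33 amino acid response genes 6 were higher and apart and 5 lower and apart. Asns, the asparagine synthetase, had 7.23 and 9.28 CPM against 11.7, 36.9 and 54.8 CPM (2.06, SE 0.73), while Psat1, of serine synthesis, had 74.7 and 103 CPM against 37.3, 45.2 and 59.3 CPM (-0.91, SE 0.33).

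Type I interferon response genes stood lower in 31 of 37 members, with 13 lower and apart (35.1%), 1 higher and apart and a median of -0.70. An unadjusted p under 0.05 was reached by 8 lower members, by 5 without any 1 KO_MCD replicate and by 3 without WT_NCD replicate 2, where the median was -0.45. Ifi209, an interferon-inducible DNA sensor, had 577 and 706 CPM in WT_NCD and 207, 243 and 194 CPM in KO_MCD (-1.58, SE 0.24). Zbp1, a sensor of nucleic acids, had 269 and 293 CPM against 142, 126 and 142 CPM (-1.04, SE 0.24), and Irf9, part of the factor that reads the interferon signal, 341 and 403 CPM against 201, 253 and 192 CPM (-0.79, SE 0.25). The WT_MCD libraries lay within or close to the KO_MCD range in these 3, at 267 and 256 CPM for Ifi209, 134 and 153 CPM for Zbp1 and 224 and 240 CPM for Irf9.

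Activation genes stood higher when both control libraries were kept. The amounts, and the direction of the immediate early list, depended on the control library. Of 33 immediate early genes 29 were higher and 7 higher and apart (21.2%), with a median of 0.59. Without WT_NCD replicate 1 the median was 1.78, beside 0.15 over all genes in that setting. Without WT_NCD replicate 2 it was 0.10, below the 0.19 of all genes, with 18 higher and 15 lower. Of 25 NF-kB pathway genes 10 were higher and apart (40.0%) and 0 lower and apart, with a median of 0.56 (1.30 without WT_NCD replicate 1). Their unadjusted p was under 0.05 for 2 and 4 members, for 21 and 10 without WT_NCD replicate 1, and for 0 and 0 without WT_NCD replicate 2; for NF-kB it was 1 without KO_MCD replicate 1 or 2. Myc, a driver of growth, had 200 and 144 CPM in WT_NCD and 419, 387 and 273 CPM in KO_MCD (1.06, SE 0.32), with WT_MCD at 195 and 148 CPM. The HSP70 cochaperone Dnajb1 had 913 and 281 CPM against 2282, 3010 and 1146 CPM (1.84, SE 0.68, and 1.24 without WT_NCD replicate 2), while the 28 heat shock chaperones as a list had a median of 0.02. Bcl2, which blocks apoptosis, had 17.7 and 45.3 CPM against 103, 65.6 and 124 CPM (1.63, SE 0.54).

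Housekeeping groups held few members with a small p, though proteasome genes (26 of 37) and oxidative phosphorylation genes (27 of 39) were mostly lower by sign. Of 57 cytosolic ribosomal protein genes, 37 proteasome genes and 39 nuclear oxidative phosphorylation genes, 0 had an unadjusted p under 0.05 in either direction, and their medians were 0.04, -0.17 and -0.29. With 1 library left out, up to 2, 1 and 3 members of these lists reached such a p in a direction, and the ribosomal and proteasome medians ran from -0.37 to 0.36 and from -0.43 to 0.04, crossing 0. The 10 mitochondrially encoded genes had a median of 0.44, with 9 higher by sign and 3 higher and apart (30%). Near the targeted gene, within 5 Mb of Nt5e on chromosome 9, 37 genes were tested, of which 7 were higher and apart (18.9%) and 2 lower and apart, with a median of 0.24. Bckdhb, a subunit of the enzyme that breaks down branched-chain amino acids, had 7.28 and 8.68 CPM against 43.6, 25.8 and 19.6 CPM (1.89, SE 0.62), with WT_MCD at 4.83 and 10.4 CPM. Snx14, a sorting nexin, had 179 and 175 CPM against 103, 111 and 56.7 CPM (-0.97, SE 0.37), with WT_MCD at 121 and 77.3 CPM.

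**Figure D5:**
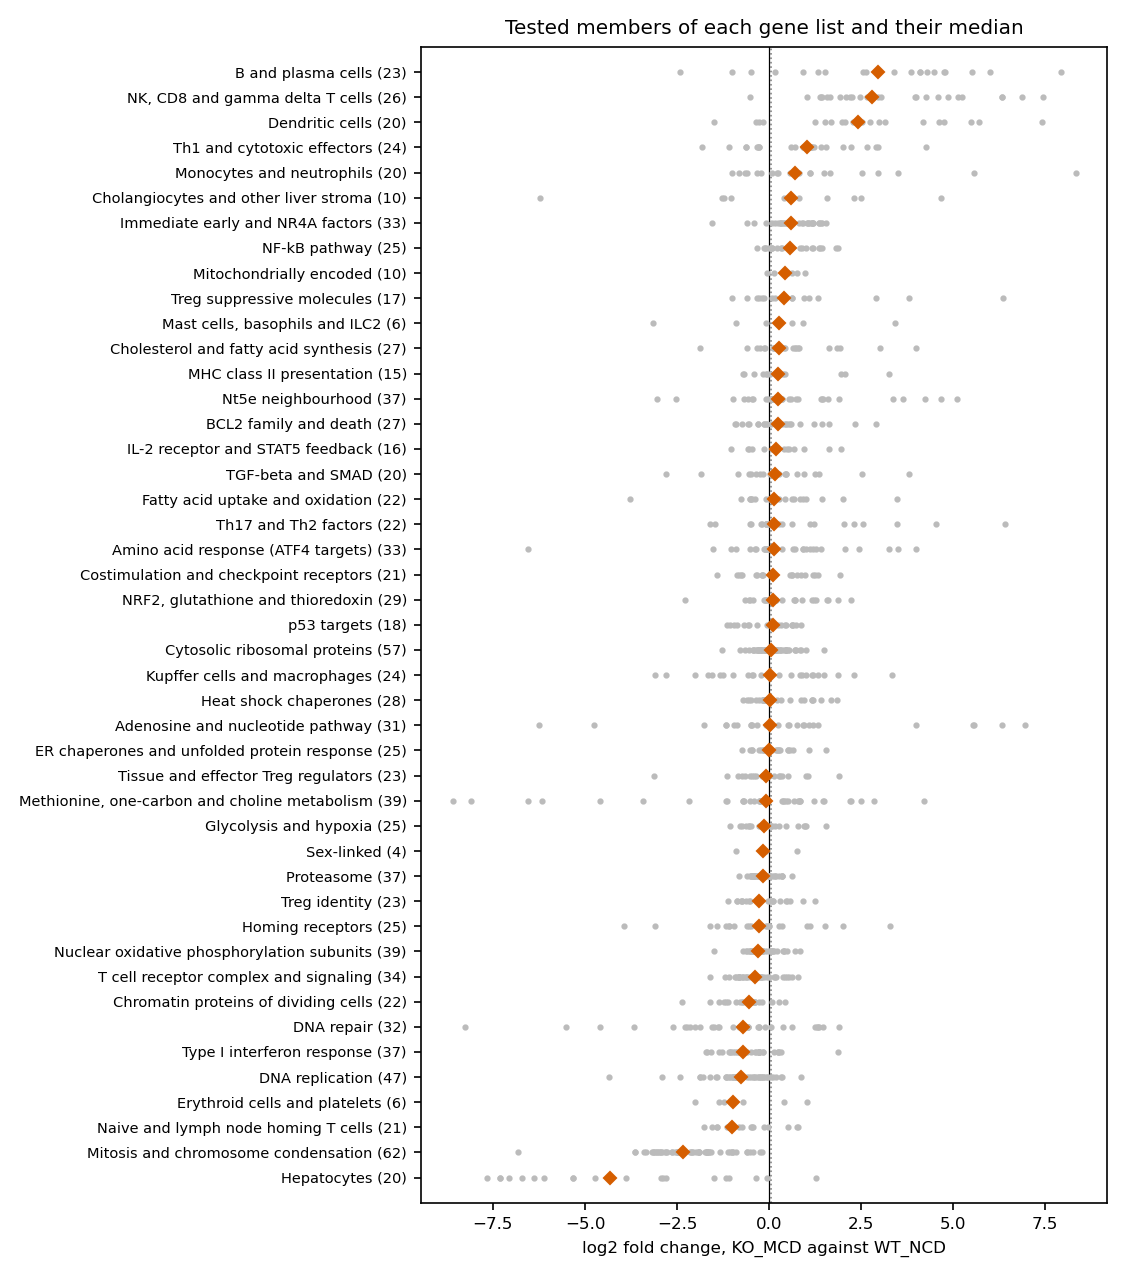
Log2 fold change of KO_MCD against WT_NCD (x axis) for each tested member (grey points) and the median (orange diamonds) of each gene list (y axis, number of tested members in parentheses). Genes not counted in 1 group stand at their bound, and the dotted line is the median of all tested genes, 0.06. Hepatocyte and mitosis lists have the lowest medians, -4.31 and -2.34, and B cell, NK and dendritic lists the highest, 2.96, 2.81 and 2.41.

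Some counts are uncertain, because the strand setting of the counting is not given and the exons of these genes overlap another annotated gene: Foxp3, Eme1, Ncapd2, Top2a, Gpr15, Stmn1, Rad54l, Cd27, Cd247, Ikzf2, Nrp1, Itgav, Furin, Penk, Bhlhe40, Ctsw, Clec9a, Ciita, Chka, Pcyt1a, Chpt1, Bhmt, Azin1, Elovl6, Irf9, Bcl2 and Snx14.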

How the data were processed

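RNA of CD4+CD25+ liver cells was sequenced in 7 libraries. The authors deposited a table of read counts per gene ID. Per the submitters' processing notes, the aligner was HISAT2 (version 2.1.0) and the genome GRCm38. How reads were counted, with which annotation and on which strand, was not stated there or in the labels. Of 53465 IDs, 21106 had a count and 53360 were found in the GENCODE M21 annotation (GRCm38), which gave symbols and exon overlaps.

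Genes passing filterByExpr (minimum count 10), 14784 in number, were scaled by TMM and tested with edgeR 4.0.16 (glmQLFit, glmQLFTest; R 4.3.3) on all 7 libraries with 1 coefficient per group, with Benjamini-Hochberg adjustment. Log2 fold changes are edgeR's. DESeq2 1.42.0 and limma 3.58.1 voom were alternatives, besides other scalings, filters, a replicate block and leaving out each library. Libraries within a group were not duplicates of each other: their counts differed by a chi-square of 93.8 to 348 per degree of freedom. Pairs across groups were not compared in this way.

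The members and lists were chosen with earlier results of these data known. Named genes were a set fixed with the design, the 12 of smallest p in each direction (groups apart, mean at least 5 CPM), and up to 4 per list by p under the same conditions, with the 2 most abundant in lists of other cells, and genes near Nt5e. Predicted genes, pseudogenes and receptor or immunoglobulin segments were left out of the 12 in each direction. Cd4, Alb, Ncr1, Xcr1, Clec9a, Chpt1 and Pcyt2 fall outside this rule and were chosen after their values were seen. Some genes that the rule names are not reported here.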

Additional observations from a re-analysis of the deposited data

How the results depend on the processing

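The count of edgeR calls, 0 in each direction, held with size factors, library totals, the 5 libraries alone, a mean of at least 5 CPM, genes of other cells removed, an adjusted p under 0.1 and each library left out. It did not hold with DESeq2 (387 higher, 182 lower, with 1145 higher at an unadjusted p under 0.05), nor without a low-count filter (86 higher, 54 lower); the cause was not tested. With library totals the genes at an unadjusted p under 0.05 were 837 higher and 472 lower, against 698 and 628, and the median of all genes was 0.165. With 1 library left out they ran from 477 to 918 higher and from 445 to 636 lower, the most higher and fewest lower without WT_NCD replicate 2.

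With the replicate number as a block, 0 genes were called by edgeR, and 492 were higher and 393 lower at an unadjusted p under 0.05. Replicate number 3 occurs only in KO_MCD, so its block takes up KO_MCD replicate 3. That library then adds nothing to the group difference, and less is left to estimate spread. The cause of the lower counts was not tested. The numbers were not taken as pairing the libraries: deviations of same-numbered WT_NCD and KO_MCD libraries had correlations of 0.03 and -0.046.

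Leaving out 1 library turned the sign of the log2 fold change of Foxp3 (range -0.58 to 0.095), Il10 (-0.47 to 0.97), Alb (-0.88 to 0.25), Cd4 (-1.40 to 0.072) and Xcr1 (-0.75 to 0.62). A gene without counts in a library may have up to 0.123 to 0.152 CPM there (by unscaled library totals), so lower levels were not detectable.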
